A study of Rattus norvegicus with 6 samples.

Results

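The serpins, a family of protease inhibitors and their relatives, were followed in rat liver after faecal microbiota transplantation. Its members were taken by name, as every gene whose symbol begins with Serpin followed by a clade letter from a to i and a number, which gave 39 of the 30957 genes in the table. The table holds liver RNA-seq of 6 rats, 3 in each of the groups t-PBS and t-DHEA, all female and Sprague Dawley, bought at 3 weeks of age and kept in a specific pathogen-free facility. Every rat, control or not, first had its own gut microbiota reduced with 3 courses of an antibiotic cocktail of 7 days each, and then received donor faeces by gavage daily for 14 days. The t-PBS donors had been injected with phosphate buffer saline and the t-DHEA donors with dehydroepiandrosterone (DHEA), an androgen precursor used to model polycystic ovary syndrome, while no recipient was injected with DHEA. Each transplantation group held 6 rats, of which 3 were sequenced; donor pellets were pooled, rats were caged in pairs, and the cage of each sequenced rat was not given in the sources used here. The comparison asks whether liver expression differed with the donor's treatment.

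Serpins are proteins of a shared fold, most of which inhibit serine proteases. An inhibitory serpin offers an exposed loop as bait; the protease cuts it, the serpin snaps into a new shape, and both are locked in an inactive complex. The liver secretes a large share of the serpins of blood plasma, which restrain proteases of neutrophils, clotting, fibrinolysis and complement. Some family members inhibit nothing: they carry hormones (Serpina6 and Serpina7), fold collagen inside the cell (Serpinh1) or act as signals (Serpinf1). Most clade B serpins stay inside the cell and protect it from its own proteases. Angiotensinogen has a serpin fold but another symbol, so it was not a member here.

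The members were split into 13 serpins that hepatocytes are known to secrete and 26 others. Serpina1f was placed among the others after its counts, 0 in every liver, had been seen, which changed the class of no tested gene. Of these, 20 passed the filter for low counts and were tested, 12 secreted hepatocyte serpins and 8 others. A further 12 members had no count in any liver, 1 of them secreted by hepatocytes (Serpina10, an inhibitor of activated factor X) and 11 others. The remaining 7 members had counts in some liver but at most 6 in any, below the filter. A count of 0 allows up to 3 counts, or 0.21 to 0.243 CPM (counts scaled to a common library size) depending on the liver, as counting error only. Total counts ran from 12348511 to 14316886 per liver. The hepatocyte markers were abundant in every liver, with albumin and 5 others summing to 155300 to 184100 CPM, and none of the 6 was called. No pair of libraries agreed within sampling noise. That the 3 samples of a group come from separate rats rests on the group sizes in the methods, and rats that shared a cage are not fully separate.

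Of the 20 serpins tested, 3 were lower in t-DHEA livers and 0 were higher. The 3 were Serpina3m, a secreted inhibitor of the antichymotrypsin group, Serpinh1, the collagen chaperone, and Serpinb8, an inhibitor inside cells. Calls were made by the rule the study used, an unadjusted p below 0.05 with a fold-change above 1.2, in edgeR's quasi-likelihood test. By that rule 4.95% of all 12210 genes tested were called, 2.98% lower and 1.97% higher. Among the secreted hepatocyte serpins 1 of 12 was called, against 2 of 8 among the others. No serpin passed a Benjamini-Hochberg adjusted p of 0.05 in edgeR, where 0% of all genes did. The lowest adjusted p of a serpin was 0.815. At an unadjusted p below 0.05 edgeR had 3 serpins and 634 genes; DESeq2 had 24 genes but 0 serpins at an adjusted p below 0.05, and limma on FPKM had 0 of both. The calls below are therefore those of an uncorrected rule.

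The medians of the classes lay on different sides of 0. The median log2 fold change, t-DHEA against t-PBS, was 0.04 over the 12 secreted hepatocyte serpins, of which 8 were positive and 4 negative. It was -0.29 over the 8 others, of which 1 was positive and 7 negative, and 0.00132 over all genes tested. The median of the secreted class was -0.01 when t-PBS rat 2 was left out. All 5 clade B serpins tested were negative, with a median of -0.21. These are descriptions of genes measured in the same livers, and the difference between the classes was not tested. In 3 of the 20 serpins the groups did not overlap, each time with all t-PBS livers above all t-DHEA livers, against 10.1% of all genes tested with no overlap in either direction. The 3 were Serpinh1, Serpinb8 and Serpinb1a. An exact permutation test of 3 against 3 cannot give a two-sided p below 0.1.

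**Figure D1:**
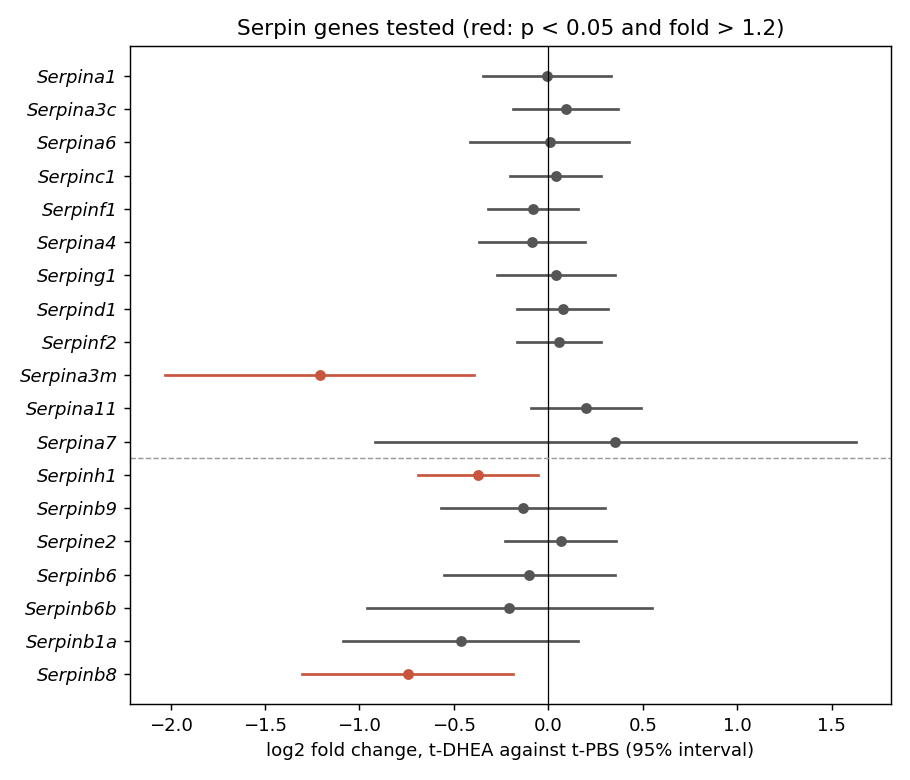
Log2 fold change of 19 tested serpins, t-DHEA against t-PBS (x axis), with its 95% interval from edgeR. Secreted hepatocyte serpins stand above the dashed line in order of mean FPKM and the others below it; the red points, Serpina3m at -1.21, Serpinb8 at -0.74 and Serpinh1 at -0.37, met the calling rule.

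Levels between genes were compared in FPKM, the count scaled to gene length and library total, since it accounts for length. Secreted hepatocyte serpins made up 99.5% to 99.6% of the summed serpin FPKM of each liver. The members took 2.19% to 2.53% of all counts. LOC299282, a row for Serpina3l by its RefSeq gene number, was not a member by name and enters none of these shares. It alone held 0.514% to 0.643% of all counts. Serpina1, alpha-1-antitrypsin, the main plasma inhibitor of neutrophil elastase, was the highest, with 37.0% to 42.7% of the summed serpin FPKM. Serpina3c followed with 26.2% to 30.1%. In FPKM the 6 livers ran from 4209 to 5620 for Serpina1 and from 3278 to 3867 for Serpina3c, with no overlap between these genes. Serpina6 ran from 750 to 1266 FPKM, above Serpinc1 at 624 to 662 FPKM. Several neighbours further down overlapped. Serpinf1 ran from 538 to 672 FPKM, across the range of Serpinc1. Serpina4 (368 to 514 FPKM) overlapped Serping1 (320 to 425 FPKM), and Serpind1 (295 to 333 FPKM) overlapped Serpinf2 (294 to 324 FPKM). The highest member outside the secreted class was Serpinh1, at 16.6 to 29.3 FPKM.

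**Figure D2:**
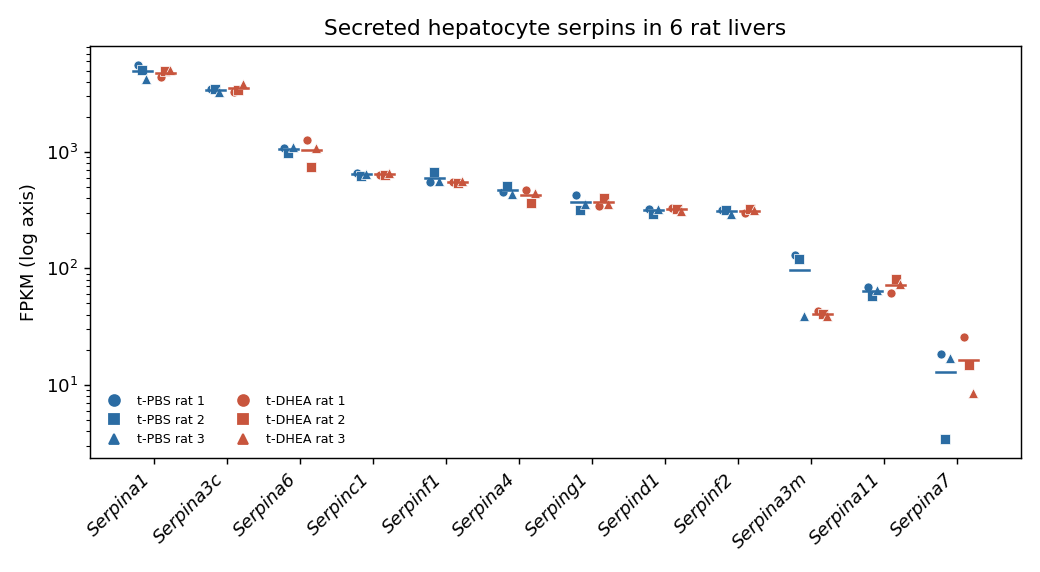
FPKM of the 12 tested secreted hepatocyte serpins in each liver (log axis), t-PBS in blue and t-DHEA in red, with a marker shape for each rat and a line at each group mean. Serpina1 is highest in every liver, the t-PBS and t-DHEA values lie close together for most genes, and Serpina3m in t-PBS rat 3 sits at 39.4 FPKM beside the t-DHEA livers.

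None of Serpina1, Serpinc1, Serpind1 and Serpinf2, which restrain proteases of neutrophils, clotting and fibrinolysis, was called. Serpina1 stood at 10823, 9320 and 8072 CPM in t-PBS rats 1 to 3 and at 8656, 9582 and 9826 CPM in t-DHEA rats 1 to 3. The t-PBS livers spanned the whole of the t-DHEA range, and the log2 fold change was -0.01, with a 95% interval from -0.35 to 0.33. Serpinc1, antithrombin, which inactivates thrombin and factor X, was the steadiest, with a coefficient of variation of 3.78% over the 6 livers. Its values were 2345, 2122 and 2279 CPM in t-PBS and 2291, 2274 and 2368 CPM in t-DHEA, a log2 fold change of 0.04 with an interval from -0.20 to 0.28. Serpind1, heparin cofactor II, a second thrombin inhibitor, averaged 957 ± 74.5 CPM (SD, n = 3) in t-PBS and 1009 ± 36.4 CPM (SD, n = 3) in t-DHEA. Its log2 fold change was 0.08, with an interval from -0.16 to 0.32. The Serpind1 gene lies inside the span of Pi4ka, which had 2498 counts over all 6 livers. Serpinf2, alpha-2-antiplasmin, the main plasma inhibitor of plasmin, averaged 738 ± 30.4 CPM (SD, n = 3) and 767 ± 28.6 CPM (SD, n = 3) in t-PBS and t-DHEA. With a coefficient of variation of 4.12% it was nearly as even as antithrombin.

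The proteases these serpins act on, with other genes of fibrinolysis, were read from lists. Of 10 coagulation proteases, all tested, 0 were called and the median log2 fold change was 0.08; F7, F2 and F10 had the lowest p, with log2 fold changes of 0.43, 0.15 and 0.15. Of 9 fibrinolysis genes tested, 0 were called and the median was -0.23. There the lowest p belonged to Anxa2, a surface receptor for plasminogen activation (-0.47), Plat, tissue plasminogen activator (-0.59), and S100a10, the partner of Anxa2 (-0.28). Across both lists the uncorrected rule thus picked none, where it picked 4.95% of all genes. Lists this short can hold no called gene at that share. A further list was of proteases of neutrophils and mast cells, some of which Serpina1 and the antichymotrypsin group inhibit. Of its 10 genes only 2 passed the filter and 3 had no count in any liver. The list also held Gzma, a granzyme of killer lymphocytes and so not a protease of those cells. It was called lower, at 2.85 CPM in t-PBS and 1.44 CPM in t-DHEA on average.

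Serping1, the inhibitor of the complement C1 proteases and of kallikrein, averaged 689 ± 113 CPM (SD, n = 3) in t-PBS and 708 ± 54.6 CPM (SD, n = 3) in t-DHEA. Its log2 fold change was 0.04, with an interval from -0.27 to 0.35. Of 11 rows tested for complement C1 and lectin pathway genes, 0 were higher and 1 was lower, with a median of 0.13. The lower gene was Masp1, a protease of the lectin pathway (log2 fold change -0.29). It kept its call in 3 of 6 fits with a liver left out. C1s and C1r, the direct targets of Serping1, had log2 fold changes of 0.32 and 0.29 and were not called. Serpina4, kallistatin, a kallikrein inhibitor, averaged 705 ± 47.3 CPM (SD, n = 3) and 663 ± 85.7 CPM (SD, n = 3), a log2 fold change of -0.09. Serpinf1, pigment epithelium-derived factor, which does not inhibit proteases, averaged 914 ± 75.2 CPM (SD, n = 3) and 863 ± 17.6 CPM (SD, n = 3), a log2 fold change of -0.08. All groups overlapped in these 3 genes.

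Serpina6, corticosteroid-binding globulin, carries glucocorticoids in blood. It stood at 1694, 1475 and 1732 CPM in t-PBS and at 2029, 1193 and 1703 CPM in t-DHEA. The t-DHEA group held both the highest and the lowest liver, and the fold change was 0.01 on the log2 scale with an interval from -0.41 to 0.43. Of 12 rows tested for glucocorticoid targets, 1 was higher and 0 were lower: Tat, tyrosine aminotransferase, with a log2 fold change of 0.68. Serpina7, thyroxine-binding globulin, is named here for its spread, a choice made after its values were seen. It ran from 5.97 to 47.3 CPM over the 6 livers, a 7.92-fold range with a coefficient of variation of 53.9%, against a median of 9.91% for the secreted hepatocyte serpins and 13.4% for all genes. Both groups spanned much of that range, and its log2 fold change was 0.36 with an interval from -0.92 to 1.63.

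Serpina3m was the most changed secreted serpin by fold. The rodent Serpina3 genes are a cluster of close copies that correspond to the single human antichymotrypsin gene, and several of them answer to inflammation or growth hormone in the liver. Serpina3m (ENSRNOG00000009921, Rnor_6.0 chr6:127808785-127816055) stood at 222, 198 and 66.6 CPM in t-PBS rats 1 to 3 and at 73.9, 69.6 and 66.7 CPM in t-DHEA rats 1 to 3. The groups overlapped: t-PBS rat 3 lay beside the t-DHEA livers, so the difference came from t-PBS rats 1 and 2. Its log2 fold change was -1.21 (SE 0.36; adjusted p = 0.815 in edgeR). Its coefficient of variation over the 6 livers was 63.0%. Leaving out t-PBS rat 3 gave -1.58 and leaving out t-PBS rat 1 gave -0.92, the ends of the range with any 1 liver left out, and the gene was called each time. Without t-PBS rat 3 the adjusted p was 0.00602, and over the other alternatives it ran from 0.769 to 1, so 1 liver decides whether the gene passes the correction.

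Near-identical copies limit this reading. The row LOC299282, whose gene number is that of Serpina3l in RefSeq, spans chr6:127941526-128080889 and takes in the whole of Serpina3c (chr6:127996165-128003418). LOC299282 alone held 0.514% to 0.643% of all counts, and Serpina3c had 89.5% to 107% as many counts as LOC299282 in the same liver. Serpina3m had far fewer, 3.55%, 3.20% and 1.296% of the LOC299282 count in t-PBS and 1.37%, 1.14% and 1.05% in t-DHEA. These are shares of counts and take no account of gene length. In FPKM, LOC299282 ran from 456 to 571, Serpina3c from 3278 to 3867 and Serpina3m from 39.0 to 131 over the livers. LOC299282 had about as many counts as Serpina3c but a far lower FPKM, so a longer gene length was used for it. That length was not checked, and these FPKM do not rank LOC299282 against Serpina3c or Serpina3m. Neither large row was called: the log2 fold change was 0.09 for Serpina3c, with an interval from -0.18 to 0.37, and 0.02 for LOC299282, with an interval from -0.29 to 0.33. Serpina3c stood at 5774, 5529 and 5471 CPM in t-PBS and at 5593, 5775 and 6526 CPM in t-DHEA. How reads that match several copies were shared out is not given in the sources used here, and the Serpina3m difference is uncertain for that reason. Rows for Serpina3a, Serpina3j and Serpina16, which carry LOC symbols in the table, had no counts in any liver. A row without a gene symbol inside the cluster, AABR07065420.1 (chr6:127839463-127842383), had 43 to 51 counts per liver and was not called (log2 fold change 0.14, interval from -0.30 to 0.58).

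**Figure D3:**
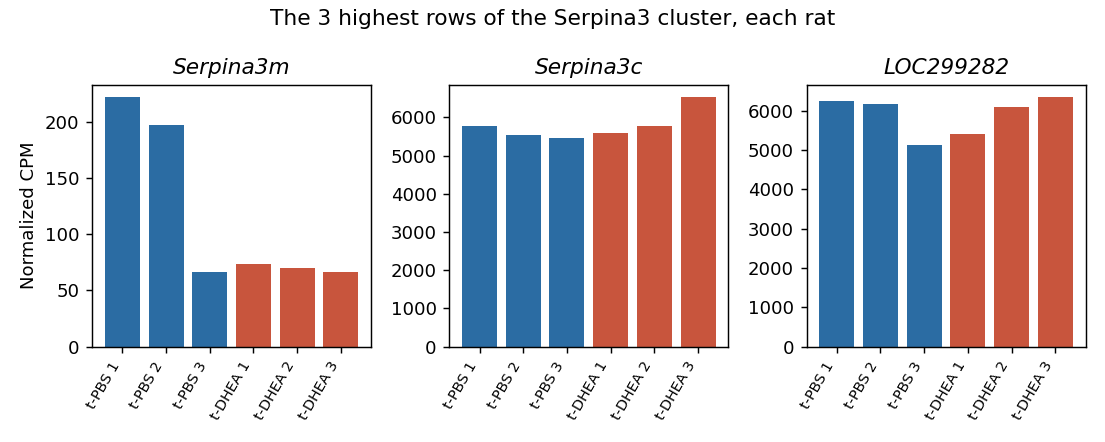
Normalized CPM (y axes from 0, each on its own scale) of the 3 highest rows of the Serpina3 cluster in each liver, t-PBS in blue and t-DHEA in red. Serpina3m is at 222 and 198 CPM in t-PBS rats 1 and 2 and between 66.6 and 73.9 CPM in the other 4 livers, while Serpina3c lies between 5471 and 6526 CPM.

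The closeness of some of the copies shows in their promoters, taken from RefSeq on the build GRCr8. The 150 bases just before the start of each gene are given for Serpina3m (chr6:128836840-128836989, minus strand) and for LOC299282, there called Serpina3l (chr6:129063056-129063205, plus strand), with capitals at the positions where they differ from each other.
Serpina3m: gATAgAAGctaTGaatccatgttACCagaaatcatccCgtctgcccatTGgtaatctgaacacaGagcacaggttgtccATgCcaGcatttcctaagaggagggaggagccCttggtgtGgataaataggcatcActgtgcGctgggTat
LOC299282: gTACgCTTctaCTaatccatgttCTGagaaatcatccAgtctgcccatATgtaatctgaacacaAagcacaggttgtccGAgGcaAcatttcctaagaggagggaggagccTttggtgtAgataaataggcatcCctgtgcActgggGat
The stretches aligned without gaps and differed at 24 of 150 positions, an identity of 84%. Over the whole window of 300 bases the identity was 70.1%, against 47.5% between Serpina3n and Serpina1, a pair of clade A genes outside each other's subgroup. Serpina3n, a further copy, was 75.3% identical to Serpina3m in this window. No member row carried the name Serpina3n, and where reads of this copy were counted is not given in the sources used here. Not all copies were close: Serpina3m was 45% identical to Serpina3j and 45.4% to Serpina3a, below that outside pair. The letters TTCNNNGAA, the core bound by STAT factors, occur 129 bases before the start of LOC299282 and nowhere in the Serpina3m window on either strand. The same letters lie 123 bases before the start of Serpina3n and 175 bases before that of Serpina3a, the latter without counts here. They occur in 8.87% of all 33465 promoters of the table, and in 2 of the 31 promoters found for the 39 members. Promoters for Serpina3c and Serpinb8 were not used here.

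The genes that move with hepatic inflammation were read beside the cluster. Of 14 positive acute phase genes tested, 0 were higher and 2 lower, and the median of their log2 fold changes was 0.00105. The lower genes were Lcn2, lipocalin 2 (log2 fold change -1.07), and Cd14, a coreceptor for lipopolysaccharide (-0.70), both low in these livers at a mean of 4.77 and 19.2 CPM. Of 10 genes of IL-6 and STAT3 signalling, 2 were higher and 0 lower: the receptor chains Lifr (1.04) and Osmr (0.71). Of 12 rows tested for hepatocyte transcription factors 1 was higher, Foxa3 (0.39), and 1 lower, Foxa1 (-0.43). With each liver left out in turn, Foxa1 kept its call in 2 of 6 fits, Osmr and Cd14 in 3 and Lifr in 4. Lcn2 and Foxa3 kept theirs in all 6. Clock genes were included because many liver transcripts follow the time of day; of 14 tested, 4 were higher and 1 was lower. Per3 and Per2 were higher, at log2 fold changes of 1.08 and 0.84, Arntl was lower at -0.87, and the hours at which the livers were taken are not given in the sources used here. Of 11 genes that secrete serpins or clear their complexes, such as Lrp1 (0.26), Calr (0.19) and Canx (0.09), 0 were called.

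Serpinh1 lies outside the secreted class. It is a chaperone of the endoplasmic reticulum that binds newly made collagen, and in liver it is a product of collagen-making cells more than of hepatocytes. Serpinh1 (ENSRNOG00000016831, chr1:164301010-164308317) stood at 72.8, 67.3 and 62.05 CPM in t-PBS rats and at 55.1, 41.6 and 59.7 CPM in t-DHEA rats. Every t-PBS liver was above every t-DHEA liver, by little between t-PBS rat 3 and t-DHEA rat 3. On the log2 scale the difference was -0.37 (SE 0.14; adjusted p = 0.946 in edgeR). The call was lost when t-PBS rat 1, t-PBS rat 2 or t-DHEA rat 2 was left out (log2 fold changes -0.31, -0.37 and -0.23), and the range with any 1 liver left out was -0.48 to -0.23.

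Of the 20 tested collagens and enzymes with which Serpinh1 works, 9 were lower and 0 higher, where 2.98% of all genes were lower. Of the 20 log2 fold changes 17 were negative, with a median of -0.28. The list was chosen with earlier results of these data known, and its genes were measured in the same livers. The contrast with all genes is a description and was not tested. The summed level of the list overlapped between the groups, at 2455 to 2863 CPM in t-PBS and 2468 to 2650 CPM in t-DHEA. Col1a2 is listed at 0 in every liver, although its partner chain Col1a1 averaged 28.3 CPM. The lowest p belonged to the collagen VI chains, Col6a3 (log2 fold change -0.76), Col6a2 (-0.49) and Col6a1 (-0.47). Fibrillar collagens Col1a1 (-0.88), Col3a1 (-0.40) and Col5a1 (-0.46) were also lower, as were Plod2 (-1.03) and Lox (-0.85), which modify and cross-link collagen, and P3h1 (-0.26), a prolyl hydroxylase. These 6 were named after their values were seen, so that all called genes of the list are given. None passed correction in edgeR, where the lowest adjusted p of the list was 0.687 (Col6a3); in DESeq2 Col6a3 had an adjusted p of 0.0109, and over its other alternatives it ran from 0.322 to 0.999. Heat shock genes were read because Serpinh1 belongs to the heat shock response: of 7 tested, 0 were called, with a median of 0.07. The list held 12 genes, of which 11 matched, and Hsp90aa1 and Hspa1a had no count in any liver, so they could not be read.

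**Figure D4:**
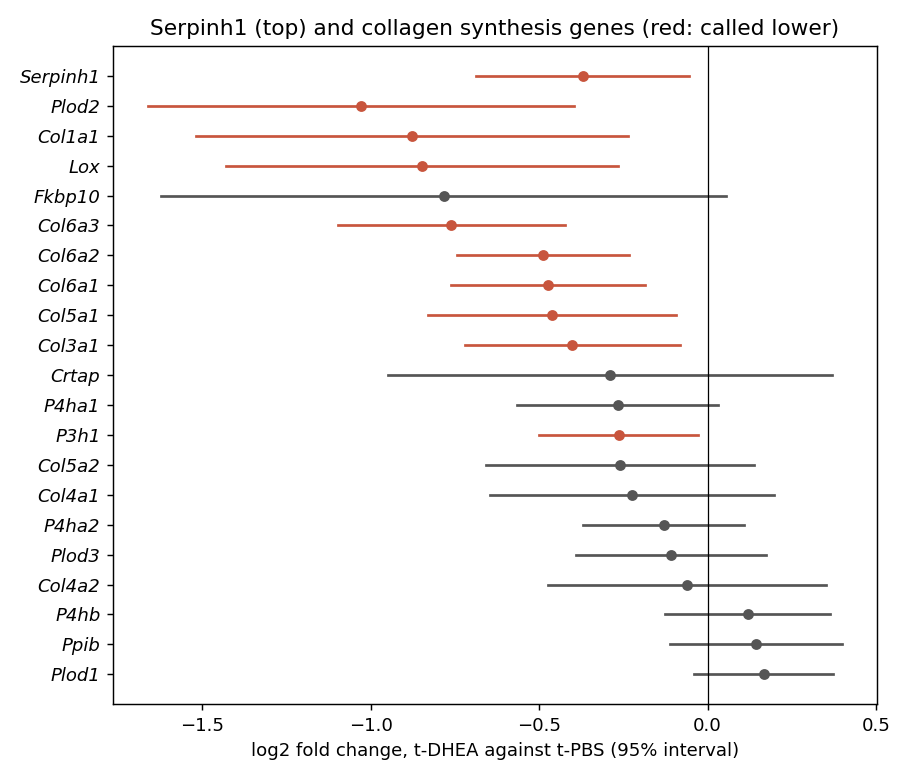
Log2 fold change, t-DHEA against t-PBS (x axis), with its 95% interval from edgeR, for Serpinh1 (top) and the 20 tested genes of collagen synthesis. The 9 red points of the list were called lower, and 3 of the 20, P4hb, Ppib and Plod1, lie to the right of 0.

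The Serpinh1 promoter holds a heat shock core. The 150 bases before the start of the gene (RefSeq, GRCr8 chr1:163062977-163063126, minus strand) are printed with capitals at the letters GAANNTTC, which begin 30 bases before the start.
Serpinh1: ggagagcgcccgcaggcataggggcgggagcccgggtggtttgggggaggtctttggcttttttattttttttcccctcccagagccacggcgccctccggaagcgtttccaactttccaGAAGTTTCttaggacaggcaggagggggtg
These letters, searched on both strands, occur in 8.59% of all promoters of the table and in 4 of the 31 found for members. The match is given as a description of the sequence.

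Marker genes of other liver cell types also differed between the groups. In bulk liver, fewer cells of a type and less RNA per cell cannot be told apart. Of 6 mesothelial markers 5 were tested and 4 were lower, with the summed level at 24.7 to 28.4 CPM in t-PBS and 1.57 to 12.8 CPM in t-DHEA. Upk3b, Muc16 and Msln, defining markers of the mesothelial covering of the liver, had log2 fold changes of -2.56, -2.59 and -1.87. By rat, the summed mesothelial level was 24.7, 28.4 and 27.6 CPM in t-PBS and 6.19, 1.57 and 12.8 CPM in t-DHEA. Stellate and fibroblast markers summed to 496 to 648 CPM in t-PBS and 407 to 477 CPM in t-DHEA, with 2 of 6 lower, both of them collagens. Of 4 bile duct markers tested, which share Krt7 with the mesothelial list, 2 were lower, at a sum of 18.2 to 22.8 CPM and 9.05 to 15.8 CPM. The part of these cell types in the lower Serpinh1, Serpinb8 and collagen values was not tested. Of red cell markers 3 of 5 were higher, of neutrophil markers 1 of 2 (S100a9, with Mpo at 0 in every liver), and 0 of 4 lymphocyte, 1 platelet and 5 Kupffer markers were called. The neutrophil markers were scarce, summing to 0.755 to 1.96 CPM in t-PBS and 2.32 to 2.81 CPM in t-DHEA. S100a9 lost its call in DESeq2 and kept it in 3 of 6 fits with a liver left out. Kdr was the 1 of 4 endothelial markers called, higher by 0.36 on the log2 scale. It kept its call in 3 of 6 fits with a liver left out.

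The clade B serpins were scarce. Serpinb8, which inhibits furin-type proteases inside cells (ENSRNOG00000002396, chr13:27889345-27914006), stood at 5.89, 4.50 and 3.70 CPM in t-PBS and at 2.31, 2.69 and 3.399 CPM in t-DHEA. The groups did not overlap. The fold change, on the log2 scale, came to -0.74 (SE 0.25; adjusted p = 0.888 in edgeR). Leaving out t-PBS rat 1 (-0.55) or t-DHEA rat 1 (-0.63) lost the call. Serpinb1a, an inhibitor of neutrophil proteases, stood at 2.73, 2.21 and 2.19 CPM in t-PBS and at 1.98, 1.27 and 1.93 CPM in t-DHEA. Its groups did not overlap either, but the log2 fold change of -0.46 did not meet the rule (SE 0.27; adjusted p = 0.986 in edgeR). The other 3 clade B serpins tested, Serpinb9, Serpinb6 and Serpinb6b, had log2 fold changes between -0.21 and -0.10 and overlapping groups. The remaining 11 of the 16 clade B genes were at or near 0 in every liver.

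Serpine2, protease nexin, a thrombin inhibitor of the tissues that is named after its values were seen, ran at 17.2 ± 1.25 CPM (SD, n = 3) in t-PBS and 17.9 ± 2.45 CPM (SD, n = 3) in t-DHEA. Its groups overlapped, and the log2 fold change was 0.07 with an interval from -0.23 to 0.36.

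**Figure D5:**
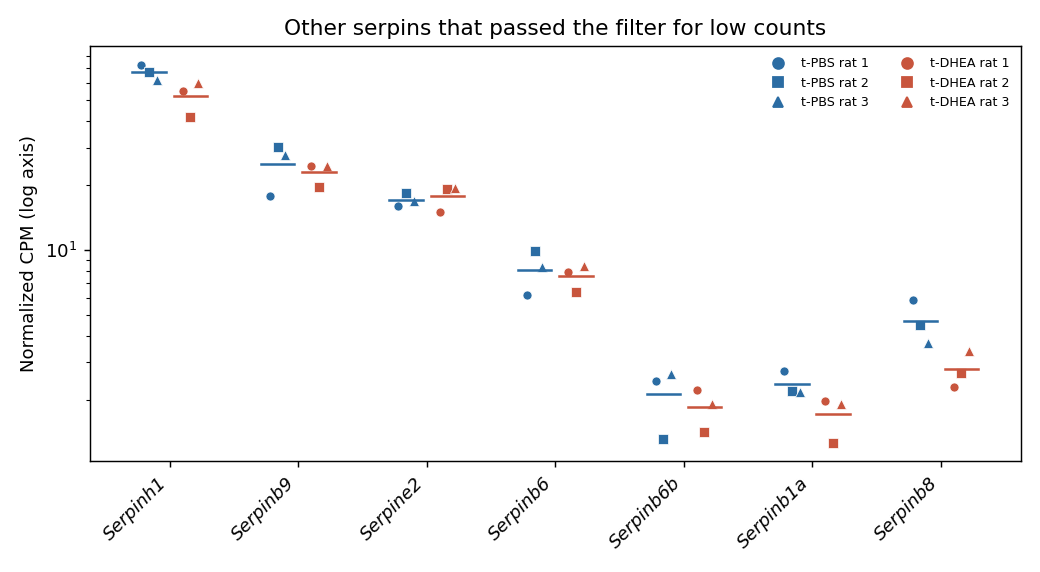
Normalized CPM (log axis) of 7 tested serpins outside the secreted hepatocyte class in each liver, t-PBS in blue and t-DHEA in red, with a marker shape for each rat and a line at each group mean. The t-PBS points of Serpinh1, Serpinb1a and Serpinb8 all lie above the t-DHEA points, and those of the other 4 genes overlap.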

How the data were processed

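Liver RNA was sequenced as paired-end libraries from 3 t-PBS and 3 t-DHEA rats. Reads were cleaned by the authors, aligned to the Rnor_6.0 build by HISAT2 2.0.4 and turned into gene counts by StringTie 1.3.0; the deposited counts are raw. FPKM values were also deposited by the authors. For the serpins with counts, the only rows checked, they follow from the counts, 1 length per gene and the library total, to within a relative difference of 0.000585. Annotation release and strandedness are not given in the sources used here, so overlapping genes are uncertain.

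TMM-normalized CPM and the quasi-likelihood test between the groups came from edgeR 4.0.16 (R 4.3.3), run on the 12210 genes passing its filter, with Benjamini-Hochberg adjustment over all of them. Intervals are at 95%, and the floor was 3 counts. The paper ran edgeR on FPKM; here it was run on counts. Alternatives used DESeq2 1.42.0, RLE factors, other filters, a replicate block, limma 3.58.1 on log2(FPKM + 0.1), a fold of 1.5 and leaving out each liver. The steps were tested on simulated data.

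Members named with values were those called, those with no overlap and a mean of at least 1 CPM, and the 10 highest by FPKM; in other lists, up to 3 genes with the lowest p. The members and lists were chosen with earlier results of these data known. The values of 1 tested member are not reported here. Of 192 list genes 190 matched a row. Promoters were aligned with Biopython 1.88. P-values measure the spread between these livers only.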

Additional observations from a re-analysis of the deposited data

How the results depend on the processing

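The count of serpins called was 3 in the edgeR fit, 3 with RLE factors, with no filter and with at least 10 counts in every liver, 4 with DESeq2 and with limma on FPKM, 2 at a fold above 1.5 and 0 at an adjusted p below 0.05. The sources used here do not say that the replicate numbers pair the rats. The correlations of deviations between same-numbered livers were -0.0524, -0.0626 and -0.039. Between the other pairs across the groups they ran from -0.0759 to 0.117. With 3 livers in each group these values cannot exclude a pairing. As no pairing is stated, the fit with the replicate block is given here only, with 4 serpins called against 3 and 539 genes against 604. With each liver left out in turn the count ran from 2 to 3, the count lower from 2 to 3, and the count higher from 0 to 1 (Serpina11, without t-DHEA rat 1). The genes behind these counts changed: without t-PBS rat 1, Serpinh1 and Serpinb8 lost the call and Serpinb9 gained it. Only Serpina3m was called with each liver left out. The number whose groups did not overlap, 3 also with RLE factors and on the FPKM scale (the latter added after seeing the data), was between 3 and 8 with a liver left out (8 when t-PBS rat 1 and 7 when t-DHEA rat 1 was dropped), a smaller comparison in which fewer livers need to be apart. With a liver left out the median log2 fold change of the secreted hepatocyte serpins lay between -0.011 (t-PBS rat 2 dropped) and 0.097 (t-PBS rat 1 dropped), and that of the others between -0.41 (t-PBS rat 2 dropped) and -0.14 (t-DHEA rat 2 dropped). Of the member values under the alternatives, 211 kept side and call, 5 lost the call, 7 gained it and 16 changed sign. The sign changed in Serpina6 under the block (-0.0234) and in limma (-0.0614) and in Serpina1 under the block (0.000599). With a liver left out the ranges that crossed 0 were -0.175 to 0.194 for Serpina6, -0.107 to 0.105 for Serpina1, -0.128 to 0.704 for Serpina7, -0.0668 to 0.168 for Serping1, -0.167 to 0.0142 for Serpina4, -0.266 to 0.0681 for Serpinb6 and -0.33 to 0.0149 for Serpinb9, none of them called in the edgeR fit, and the cause was not tested. Depth limits the members near 0, where 3 counts stand for 0.21 to 0.243 CPM.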
